A study of Homo sapiens with 8 samples.

Results

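Acetylation of histone H3 at lysine 27 (H3K27ac) was examined at 10 genes that encode subunits of the SWI/SNF chromatin remodelling complexes: SMARCA2, SMARCA4, ARID1A, ARID1B, ARID2, PBRM1, BRD7, SMARCB1, SMARCC1 and SMARCD1. They are 10 of the 20007 protein-coding genes with a canonical start in the annotation, and were chosen by name as subunit genes. Each gene was described by all H3K27ac peaks in its body (GENCODE release 44, hg38) and in 20 kb on either side. Overlapping or adjoining peaks of the 6 lists were joined into intervals. Of the 143733 intervals of the whole series, 264 lay in these 10 windows, none of them in more than 1 window.

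HCEC-1CT cells are human colonic epithelial cells immortalised with CDK4 and hTERT, and all cells of this study carried a doxycycline-inducible Cas9. H3K27ac chromatin immunoprecipitation followed by sequencing (ChIP-seq) was done on 3 wild-type (WT, parental) libraries and 3 libraries with a CRISPR knockout of CREBBP (CREBBP-KO), the gene of the acetyltransferase CBP, which with p300 deposits this mark. The comparison asks how H3K27ac at a gene, relative to the other peaks of its library, differs when CBP is missing. The KO cells are called monoclonal in the ChIP methods, whereas elsewhere in the methods several clones, and matched parental subclones, were pooled. What is due to the deletion and what to the clones therefore cannot be told apart, and p-values measure the spread between these libraries only.

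The lists held 86163 to 93567 peaks in WT and 99008 to 111697 in CREBBP-KO. They give no read counts, and the methods give an average depth and an upper limit after downsampling but none for a single library, so no counting error can be set beside a peak. H3K27ac peaks cannot show whether CREBBP was deleted, and its promoter carried a peak in all 6 libraries. The labels call the cells colonic epithelial. At the promoters of EPCAM, CDH1, KRT8 and KRT19, which mark epithelia, and of CDX1, CDX2, VIL1, CDH17, LGR5 and KRT20, which mark the intestine, no library had a peak, and KRT18 had one in 5 of the 6. The promoters of the mesenchymal genes had peaks in all 6 libraries, at percentiles of 96.2 to 98.4 within a library's list for VIM, 98.3 to 99.9 for FN1 and 52.0 to 81.5 for CDH2, and the blood gene PTPRC and the endothelial gene PECAM1 had none.

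SWI/SNF complexes use the energy of ATP to slide or evict nucleosomes, and they open chromatin at enhancers and promoters. Each complex holds 1 ATPase, SMARCA2 (BRM) or SMARCA4 (BRG1). The canonical BAF and PBAF complexes share a core that includes SMARCB1, SMARCC1 and SMARCD1. ARID1A and ARID1B are alternative subunits of the canonical BAF complex, and ARID2, PBRM1 and BRD7 belong to the PBAF complex. Their genes are often mutated in cancer, and ARID1A in particular in tumours of the gut.

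The sequences at the sites on which the results turn are given first, 200 bases around the highest summit of 2 ARID1B introns, read from hg38 on the plus strand. The site at chr6:156992544-156992743 lay in the interval of this gene with the largest rise in CREBBP-KO, and that at chr6:157129463-157129662 in the interval with the largest fall. Capitals mark matches, on either strand, to any of 8 motifs. The CRE, the site of CREB proteins, was searched as TGACGTCA. The site of AP-1, a factor common at enhancers, was searched as TGANTCA. For ETS factors the letters were CCGGAAG, and for the box bound by NF-Y they were CCAAT. For SP and KLF factors, which bind GC-rich promoters, the letters were GGGCGG. For TEAD factors, the partners of YAP, the letters were GGAATG. For forkhead (FOX) factors the letters were TGTTTAC, and for YY1 they were ATGGCGG. Matches of a motif may overlap each other, as in runs of the SP and KLF letters.
ARID1B intron, higher: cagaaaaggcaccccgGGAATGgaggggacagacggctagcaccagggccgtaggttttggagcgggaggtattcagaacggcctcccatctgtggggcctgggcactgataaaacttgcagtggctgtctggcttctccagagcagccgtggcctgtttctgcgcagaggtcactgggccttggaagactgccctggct
ARID1B intron, lower: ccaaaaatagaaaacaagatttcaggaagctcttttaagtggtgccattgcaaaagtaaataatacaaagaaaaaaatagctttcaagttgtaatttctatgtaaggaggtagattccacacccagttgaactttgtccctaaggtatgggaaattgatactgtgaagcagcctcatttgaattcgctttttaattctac

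The higher site held a match to the TEAD motif and the lower site held none of the 8. Their GC contents were 61.0% and 34.0%. This pair does not stand for all higher and lower sites. The site with the largest rise in these genes, in SMARCB1, held none of the 8 motifs and had 52.5% GC. A lower ARID1B site at chr6:156976599-156976798 had 53.5% GC, and another at chr6:156953372-156953571 held a FOX match. The CRE letters, which CREB proteins bind and through which CBP can be recruited, were in 0 of the 30 summit windows of tested intervals away from promoters in these genes and in 0.0401% of all 24919 such windows. The AP-1 letters were in 2 of the 30, or 6.67%, against 6.35% of all. The TEAD letters were in 7 of the 30, or 23.3%, against 10.9% of all. The CCAAT letters were in 23.3% against 22.1%, and the SP and KLF letters in 6.67% against 6.13%. The FOX letters were in 3.33% against 3.32%. The ETS and YY1 letters were in 0 of the 30, against 0.975% and 0.594%. These shares were not tested.

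RefSeq promoter sequences (GRCh38.p14, 250 bases before to 50 after a start) were matched for 8 of the 10 genes, with 14 entries. ARID2 and SMARCC1 had no match. Shown here are the 150 bases upstream of the BRD7 start on the minus strand, chr16:50368989-50369138, and of an internal SMARCA2 start on the plus strand, chr9:2157512-2157661, which lies in an intron of the long transcript. The first stands for the canonical starts of the 8 matched genes, whose 300-base promoters had GC contents of 61.7% to 81.3%. The second is a start within a gene that carried more H3K27ac than the canonical one.
BRD7, canonical start: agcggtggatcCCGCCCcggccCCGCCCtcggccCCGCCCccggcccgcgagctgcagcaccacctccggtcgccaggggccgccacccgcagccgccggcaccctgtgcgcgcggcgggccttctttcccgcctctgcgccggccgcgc
SMARCA2, internal start: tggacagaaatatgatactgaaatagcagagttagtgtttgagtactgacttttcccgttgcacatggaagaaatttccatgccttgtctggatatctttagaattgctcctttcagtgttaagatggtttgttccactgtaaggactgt

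The 300-base promoter of BRD7 had a GC content of 73.3% and 37 CpG dinucleotides, and that of the internal SMARCA2 start had 48.7% and 4. The median of all 35116 RefSeq promoters was 58.7% and 14. SP and KLF letters were in 9 of the 14 promoters, against 45.0% of all promoters, and the CRE letters in 0 of the 14, against 1.85% of all. A match is a description of the letters and no evidence of binding.

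All 10 genes had a peak within 1 kb of the start of the canonical transcript in all 6 libraries, as had 59.1% of 20033 canonical protein-coding starts. Levels are given as fold enrichment over background, as deposited, and as the percentile of that fold within the library's own list, where 100 would be the highest peak. Percentiles, and the rank scores used below, are relative within a library, so a change common to all peaks does not show in them. For CREBBP-KO cells the paper reports a moderate H3K27ac reduction of borderline significance by mass spectrometry, and a small significant one by immunofluorescence. It reports most H3K27ac ChIP-seq peaks as unaffected, under a limit on fold change and a stricter false discovery rate than here. The mean percentile of the 10 promoters over the 6 libraries had a median of 94.9, against 88.9 for the 11837 promoters with a peak in all 6. The genes ranked SMARCB1 (98.5), ARID1B (96.0), ARID1A (95.6), ARID2 (95.5), SMARCC1 (95.2), PBRM1 (94.6), BRD7 (93.2), SMARCD1 (92.4), SMARCA4 (91.7) and SMARCA2 (84.2). SMARCB1 was the highest of the 10 in 5 libraries and ARID1A in the sixth, and SMARCA2 was the lowest in all 6. Between neighbours in this order the ranges over the libraries overlapped.

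At the level of single promoters, 3 of the 10 genes had all CREBBP-KO libraries above all WT libraries in percentile, none had them below, and the genotypes overlapped at 7. With the same number of peaks taken from each list, ARID1B alone was apart. Over all promoters with 6 peaks, 46.0% were apart upward and 7.25% downward. The higher mean was in CREBBP-KO at 77.0% of all promoters, with a median difference of 3.51 percentile points. The median difference of the 10 genes was 1.34 points, with 7 of 10 higher. Whether the 10 genes differ from all promoters in these shares was not tested. The exact permutation test of 3 libraries against 3 cannot give a p below 0.1.

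For a measure taken over the same intervals in each library, the folds of the 34864 intervals with a peak in all 6 libraries and a fold of at least 5 in all 3 libraries of a genotype were ranked within each library and turned into normal scores. Genotypes were compared with limma, and the shift is CREBBP-KO minus WT in units of 1 standard deviation of the scores. An interval was called at a Benjamini-Hochberg adjusted p under 0.05. Of the 264 intervals, 47 (17.8%) passed these filters, against 24.3% of all intervals. A fold of 5 was reached by both genotypes at 39 of the 47, by CREBBP-KO alone at 4 and by WT alone at 4, and intervals of the last 2 kinds had to differ between genotypes to some extent.

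Of the 47, 11 were higher in CREBBP-KO and 5 lower, which is 23.4% and 10.6%. Over all tested intervals, 18.6% were higher and 18.7% lower. At promoters of protein-coding genes, those of neighbours included, 5 of 17 intervals were higher and 0 lower, against 27.2% and 7.50% of all tested promoter intervals. Away from promoters, 6 of 30 were higher and 5 lower, against 15.1% and 23.2%. At the stricter adjusted p of 0.0001, 1 of the 47 was called, against 2.79% of all. Scores of the genotypes did not overlap at 21 of the 47 (44.7%), 12 upward and 9 downward, against 48.0% of all. The median shift was 0.018 in these genes and 0.024 over all tested intervals. The shares lay near the background, and what follows describes where in these genes the called intervals lay.

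**Figure D1:**
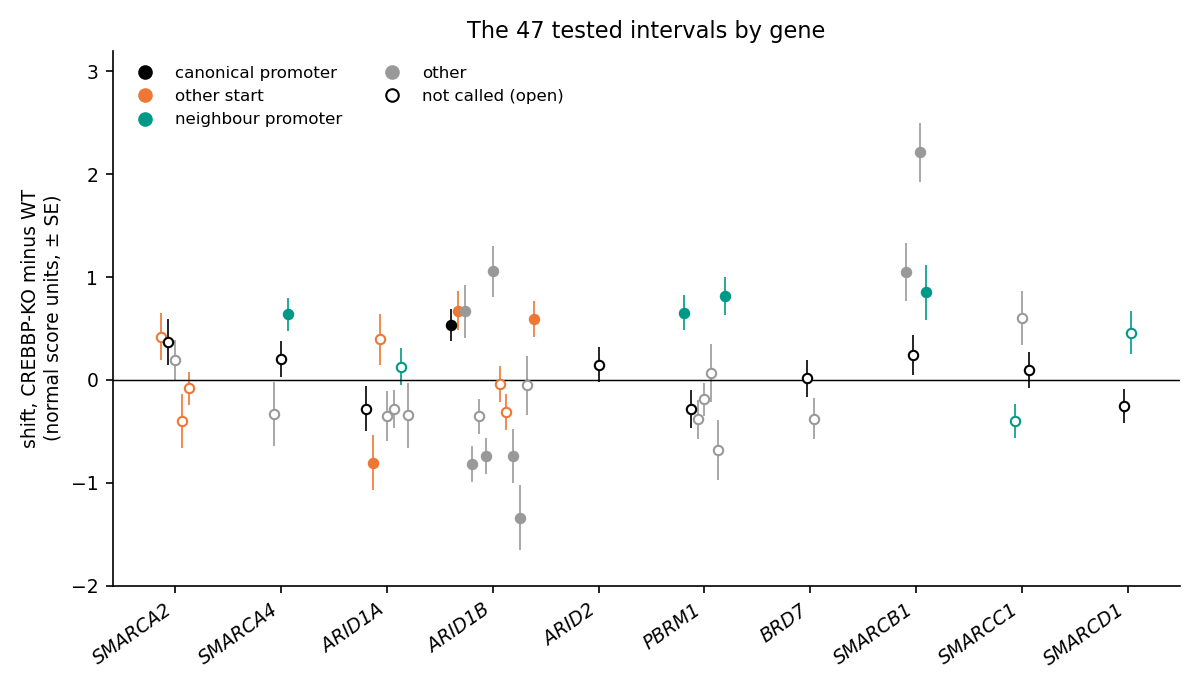
Shift of each of the 47 tested intervals (CREBBP-KO minus WT, normal score units, bars are the SE of the limma fit with n = 3 libraries per genotype), in order of position within each gene; colours give the kind of interval, and filled points were called at adjusted p under 0.05. The SMARCB1 intron at 2.21 lies above all other points, ARID1B holds called intervals in both directions, and SMARCA2, ARID2, BRD7, SMARCC1 and SMARCD1 hold none.

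Of the ATPase genes, SMARCA2 had the lowest promoter level of the 10 in every library. SMARCA4 followed it in the mean of all libraries, and was below SMARCD1 in each WT library and above it in each CREBBP-KO library. SMARCA2 (chr9:1980290-2193624, plus strand) had promoter folds of 6.92, 9.90 and 10.6 in WT and 11.6, 10.7 and 13.3 in CREBBP-KO. These were at percentiles 72.0, 84.1 and 85.0 in WT and 88.8, 85.6 and 89.5 in CREBBP-KO. All CREBBP-KO libraries lay above all WT libraries, and the difference of means was 7.61 points (exact permutation p = 0.1, n = 3). It was 3.44 points without WT library 1, and 0.0067 over the starts of all SMARCA2 transcripts, where the groups overlapped. They also overlapped with the same number of peaks from each list, with a -log10 q of at least 5 and with ranking by -log10 p (exact permutation p = 0.3 in each). On the scores the genotypes overlapped and the shift of 0.37 ± 0.22 (SE) was not called (limma adjusted p = 0.199). The promoter peak itself was narrower in CREBBP-KO, 5127 ± 94.6 bp against 5454 ± 207 bp (SD, n = 3, exact permutation p = 0.1). Its summit lay 2087 to 2556 bp downstream of the start in all 6 libraries. The share of all promoters with peak widths apart between genotypes was not computed.

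The most acetylated interval of the SMARCA2 window was not this promoter but an interval of 5232 bp 144 kb downstream of it, at chr9:2156442-2161673. It lies in an intron of the long transcript, and 20 of the 47 annotated protein-coding transcripts of SMARCA2 start in it, among them the internal start whose upstream bases are printed above. Its folds were 18.8, 18.2 and 21.1 in WT and 19.7, 22.4 and 22.4 in CREBBP-KO. In WT the percentiles ranged from 97.1 to 98.3, and in CREBBP-KO from 97.2 to 97.9, so the genotypes overlapped. In each of the 6 libraries the internal interval was above the canonical promoter, with a ratio of folds between 1.68 and 2.72. Its shift of -0.08 ± 0.16 was not called (limma adjusted p = 0.717), and none of the 5 tested intervals of SMARCA2 was.

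SMARCA4 (chr19:10960932-11079426, plus strand) had promoter percentiles of 90.6, 86.2 and 92.9 in WT and 93.1, 94.0 and 93.3 in CREBBP-KO. The genotypes were apart by 3.57 points on average (exact permutation p = 0.1, n = 3), while the folds and scores overlapped and the shift of 0.20 ± 0.17 was not called (limma adjusted p = 0.373). The difference was 1.75 points without WT library 2. With the same number of peaks from each list it was 2.75 points and the percentiles overlapped (exact permutation p = 0.4), as they did with a -log10 q of at least 5 (exact permutation p = 0.2). No interval inside SMARCA4 was called.

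**Figure D2:**
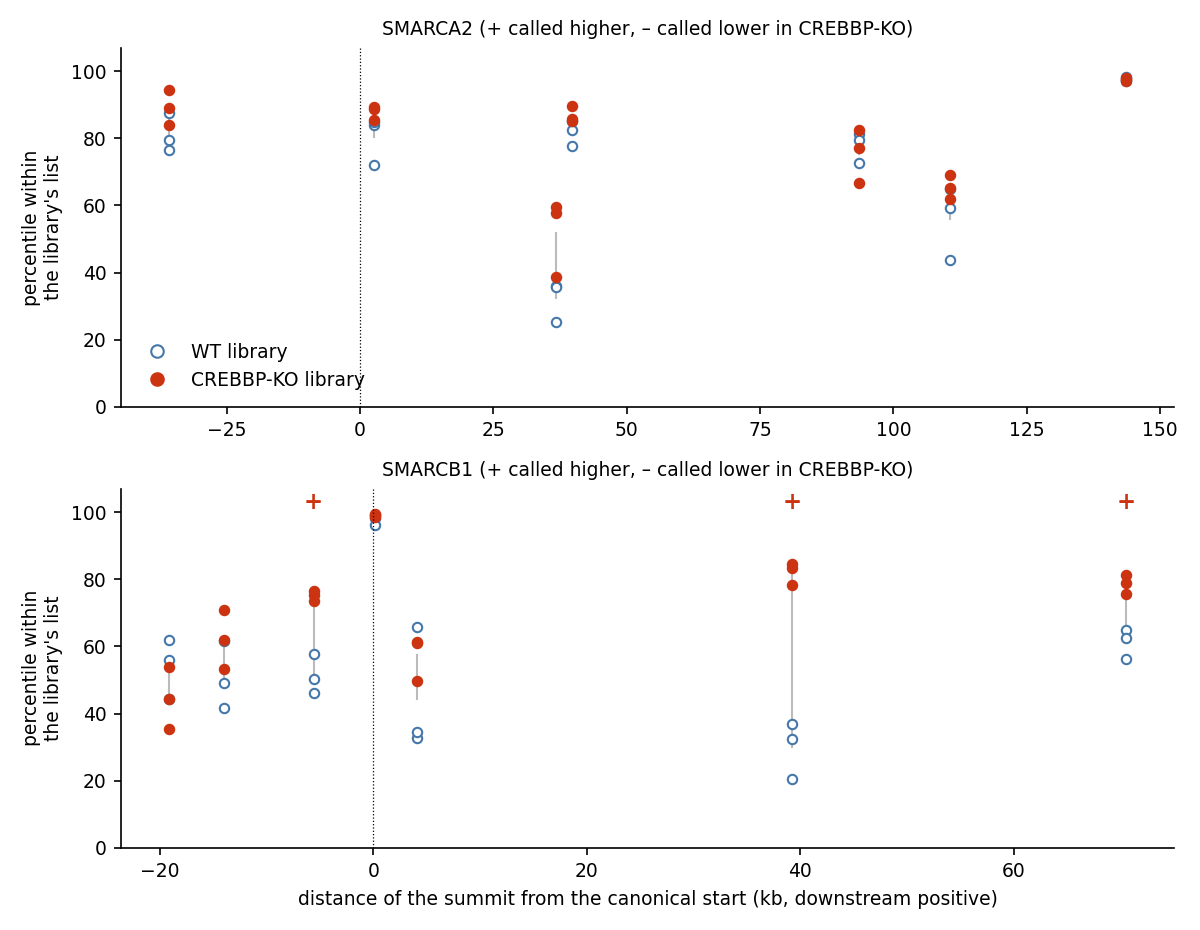
Percentile of the intervals with a peak in all 6 libraries along SMARCA2 and SMARCB1, against the distance of the summit from the canonical start in kb; open circles are WT, filled circles CREBBP-KO libraries, grey lines join the genotype means, and signs at the top mark called intervals. In SMARCA2 the interval 144 kb downstream lies above the promoter in each library, and in SMARCB1 the circles are furthest apart at 39.2 kb.

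Among the subunits of canonical BAF, ARID1A and ARID1B are paralogues of which a complex holds 1. ARID1A (chr1:26693236-26782104, plus strand) had promoter percentiles of 92.9, 98.8 and 96.8 in WT and 95.8, 91.8 and 97.7 in CREBBP-KO, which overlapped. Its promoter peak was broad, 8604 to 18417 bp across the libraries. The interval with the highest mean percentile of this window lay 76.5 kb downstream, overlapping exons near the end of the gene. Its WT percentiles ranged from 98.4 to 99.2 and the CREBBP-KO ones from 96.0 to 99.0. It was not called (shift -0.28 ± 0.18, limma adjusted p = 0.230). The promoter of the neighbour PIGV, at 91.5 kb, was not called either (shift 0.13 ± 0.18, limma adjusted p = 0.593).

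One interval of ARID1A was called, and it was lower in CREBBP-KO. It lay in an intron 27.4 kb from the start, at chr1:26720960-26728106, and the start of another ARID1A transcript lies in it or within 1 kb. Its folds were 6.83, 7.55 and 6.91 in WT and 5.41, 5.69 and 5.12 in CREBBP-KO, with no overlap. The shift was -0.80 ± 0.27 (limma adjusted p = 0.0230). The call was lost without WT library 2, WT library 3 or CREBBP-KO library 3 (adjusted p = 0.0860, 0.0585 and 0.0669 by limma) and under a fold filter of 3 or none.

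ARID1B (chr6:156776020-157210779, plus strand), the longest of the 10 genes, held 9 of the 16 called intervals, 5 higher and 4 lower, and 4 of its 13 tested intervals were not called. Of all tested intervals, 18.6% were called higher and 18.7% lower. The promoter was the only canonical promoter of the 10 that was called, beside 27.2% of all tested promoter intervals called higher and 7.50% lower. Its folds were 14.8, 14.8 and 15.7 in WT and 20.8, 23.8 and 22.9 in CREBBP-KO, and its percentiles 93.5, 94.1 and 94.3 against 97.8, 98.3 and 97.8. The genotypes did not overlap, and the mean fold rose from 15.1 ± 0.499 to 22.5 ± 1.51 (SD, n = 3, exact permutation p = 0.1). The shift was 0.54 ± 0.16 (limma adjusted p = 0.0101), and was 0.28 (limma adjusted p = 0.110) with peaks ranked by -log10 p. The summit of the promoter peak lay 1113 to 2039 bp downstream of the start in all 6 libraries.

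The other 4 higher intervals of ARID1B lay 51.0, 89.5, 215 and 372 kb downstream of the start. Those at 51.0 and 372 kb have starts of other ARID1B transcripts in them or within 1 kb. They had shifts of 0.67 ± 0.19 and 0.59 ± 0.18 (limma adjusted p = 0.00784 and 0.0117). The first lost its call without CREBBP-KO library 1 and the second without CREBBP-KO library 3 (limma adjusted p = 0.0534 and 0.0591), and the second also with peaks ranked by -log10 p (shift 0.35, limma adjusted p = 0.0587). The intron at 215 kb had the largest rise: folds of 5.87, 6.17 and 5.80 in WT and 11.8, 8.21 and 12.1 in CREBBP-KO, a shift of 1.06 ± 0.25 (limma adjusted p = 0.00236), and it was called in every alternative fit that tested it, with its smallest shift, 0.59, under ranking by -log10 p. The interval at 89.5 kb had a shift of 0.67 ± 0.26 (limma adjusted p = 0.0476), a call that was lost without any library but WT 2 (limma adjusted p = 0.0644 to 0.174). It was also lost in 7 of 9 other alternative fits, among them the replicate block (limma adjusted p = 0.0552), the same number of peaks from each list (0.0513), log2 folds (0.0708) and ranking by -log10 p (0.177).

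The 4 lower intervals lay in 2 pairs, at 176 and 199 kb and at 331 and 352 kb. At 176 kb the folds were 15.3, 13.7 and 14.0 in WT and 8.76, 10.5 and 10.9 in CREBBP-KO (shift -0.82 ± 0.17, limma adjusted p = 0.00107), and the shift was -0.31 (limma adjusted p = 0.125) with peaks ranked by -log10 p. At 199 kb they were 15.2, 14.7 and 16.0 in WT and 9.89, 13.5 and 10.7 in CREBBP-KO (shift -0.74 ± 0.17, limma adjusted p = 0.00232). The CREBBP-KO folds were below all WT folds at both. At 352 kb the folds were 8.16, 6.60 and 6.35 in WT and 5.52, 3.78 and 3.77 in CREBBP-KO, the largest fall among the 10 genes (shift -1.34 ± 0.32, limma adjusted p = 0.00257). This interval reached a fold of 5 in WT alone, so it entered the test through the genotype in which it was high, and with no fold filter its shift was -0.95 (limma adjusted p = 0.00879). The interval at 331 kb, which overlaps an exon, had a shift of -0.74 ± 0.27 (limma adjusted p = 0.0330), and the call was lost without WT library 1 or 3 or CREBBP-KO library 1 or 2 (limma adjusted p = 0.147, 0.0909, 0.0540 and 0.106), with a fold filter of 3 or none (0.0708 and 0.0712) and with ranking by -log10 p (0.117).

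Higher and lower intervals were interspersed along ARID1B, the rise at 215 kb lying 15.9 kb from the fall at 199 kb. Between the called intervals stood the most acetylated interval of the gene, at 244 kb in an intron, with another start in it or within 1 kb. Its WT percentiles, 98.4 to 98.8, lay within the CREBBP-KO range of 97.7 to 99.4, and the shift was -0.04 ± 0.17 (limma adjusted p = 0.871). Intervals of the same gene share a locus and are not independent of each other.

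**Figure D3:**
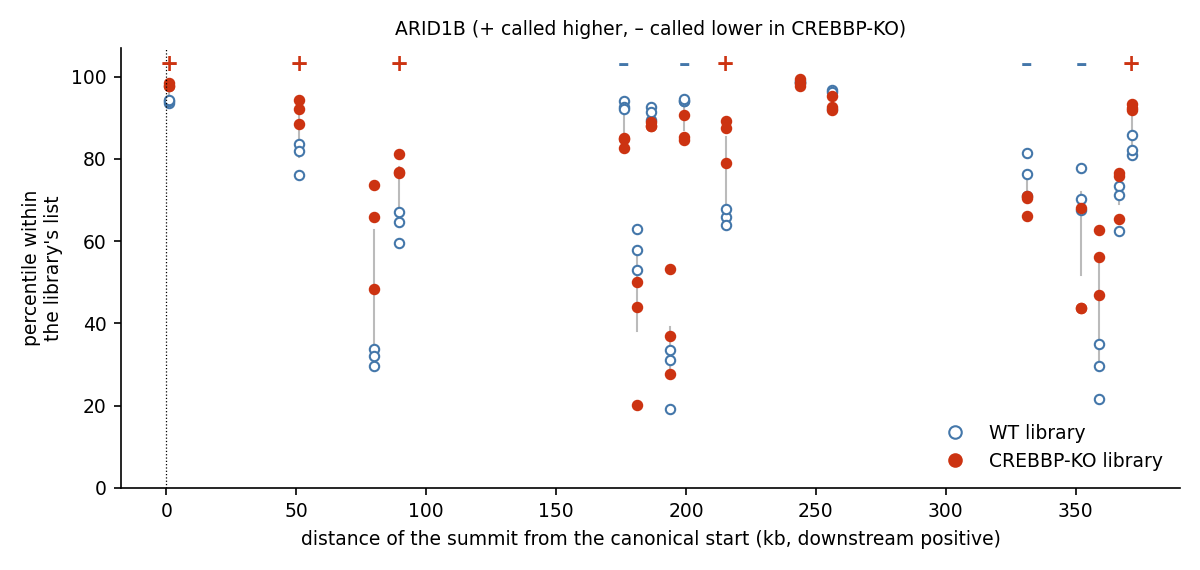
Percentile of the 17 ARID1B intervals with a peak in all 6 libraries, against the distance of the summit from the canonical start in kb; open circles are WT, filled circles CREBBP-KO libraries, grey lines join the genotype means, and signs at the top mark called intervals. Higher intervals lie at 1.11, 51.0, 89.5, 215 and 372 kb and lower ones at 176, 199, 331 and 352 kb.

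None of the PBAF genes had a called interval of its own. ARID2 (chr12:45729706-45908040, plus strand), which encodes the ARID subunit of this complex, had 1 tested interval, its promoter, with percentiles of 93.3, 93.3 and 97.1 in WT and 96.6, 96.7 and 96.3 in CREBBP-KO. They overlapped (shift 0.15 ± 0.17, limma adjusted p = 0.519). Relative to the start, the summit lay at -2606 to -2436 bp in 5 libraries and at 485 bp in CREBBP-KO library 1, within a peak of 7714 to 8623 bp.

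PBRM1 (chr3:52545352-52685917, minus strand), which encodes the subunit with several bromodomains that bind acetylated lysine, shares its promoter interval with GNL3. The percentiles were 96.4, 91.9 and 97.4 in WT and 95.6, 91.7 and 94.4 in CREBBP-KO and overlapped (shift -0.28 ± 0.19, limma adjusted p = 0.234). The highest interval of the window lay 14.5 kb inside the gene. Its WT percentiles of 97.5 to 99.0 overlapped those of CREBBP-KO, 93.7 to 98.3, and its shift of -0.38 ± 0.19 was not called (limma adjusted p = 0.114). The 2 called intervals were promoters of neighbours. The interval over NT5DC2 and UQCC5 had folds of 7.70, 9.14 and 9.07 in WT and 13.7, 15.3 and 15.2 in CREBBP-KO, apart from each other (shift 0.81 ± 0.18, limma adjusted p = 0.00178). That over GLT8D1 and SPCS1, of which SPCS1 encodes a signal peptidase subunit, had a shift of 0.65 ± 0.17 (limma adjusted p = 0.00530), and of 0.29 (limma adjusted p = 0.125) with peaks ranked by -log10 p.

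BRD7 (chr16:50313487-50368988, minus strand), a bromodomain subunit of PBAF, had promoter folds of 13.9, 12.2 and 17.0 in WT and 13.9, 17.4 and 17.5 in CREBBP-KO. They overlapped, and the shift was the smallest of the 10 promoters (0.02 ± 0.18, limma adjusted p = 0.948). The peak was narrower in CREBBP-KO, 1829 ± 222 bp against 2302 ± 238 bp (SD, n = 3), with no overlap between genotypes (exact permutation p = 0.1). How often widths are apart over all promoters was not computed. The only other tested interval lay in the downstream flank, in the body of ADCY7, with a shift of -0.38 ± 0.20 that was not called (limma adjusted p = 0.136).

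Of the core subunits, SMARCB1 (chr22:23786931-23838009, plus strand), the gene lost in rhabdoid tumours, had the highest promoter. Its folds were 21.3, 16.7 and 24.3 in WT and 27.6, 24.7 and 27.4 in CREBBP-KO. All CREBBP-KO folds were above all WT folds (means 20.8 ± 3.85 and 26.6 ± 1.61, SD, n = 3, exact permutation p = 0.1). The median fold of tested intervals was also higher in each CREBBP-KO library (9.16, 9.55 and 9.63) than in WT (9.00, 8.91 and 8.75). The share of all promoters apart in fold was not computed. In percentile the genotypes overlapped at this promoter, with means of 97.9 and 99.0, and the shift of 0.24 ± 0.19 was not called (limma adjusted p = 0.327).

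The largest shift of the 47 intervals lay in SMARCB1, 39.2 kb from the start in an intron. Its folds were 3.06, 3.65 and 3.58 in WT and 9.58, 9.78 and 8.37 in CREBBP-KO, and its percentiles 20.5, 37.0 and 32.5 against 84.6, 83.4 and 78.3. The genotypes were far apart, with a shift of 2.21 ± 0.29 (limma adjusted p = 1.02e-05), the one call that met the stricter limit. The interval reached a fold of 5 in CREBBP-KO alone, so it entered the test through the genotype in which it was high. With no fold filter it was still called, and over the alternative fits that tested it its adjusted p by limma lay between 1.34e-06 and 0.000219. A smaller peak 2.83 kb upstream of it, in the same gene, was found in each CREBBP-KO library (folds of 3.01, 4.00 and 2.17) but in none of the WT ones.

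A pair of flanking intervals of SMARCB1 was also higher. That 5.59 kb upstream of the start, in the body of MMP11, had folds of 4.08, 4.35 and 5.12 in WT and 7.02, 7.23 and 7.08 in CREBBP-KO (shift 1.05 ± 0.28, limma adjusted p = 0.00619). The promoter of SLC2A11, a sugar transporter gene, had folds of 5.77, 4.82 and 5.63 in WT and 8.35, 8.18 and 7.63 in CREBBP-KO (shift 0.85 ± 0.27, limma adjusted p = 0.0156). The genotypes did not overlap at either, but both reached a fold of 5 in all 3 libraries of CREBBP-KO alone, so that they too entered the test through the genotype in which they were high. With no fold filter the shifts were 0.73 in MMP11 and 0.55 at SLC2A11 (limma adjusted p = 0.0183 and 0.0359). The SLC2A11 call was lost without WT library 2 or CREBBP-KO library 1 (limma adjusted p = 0.0585 and 0.0639) and with peaks ranked by -log10 p (shift 0.43, limma adjusted p = 0.139).

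SMARCC1 (chr3:47585269-47782106, minus strand), a scaffold of the core, had promoter folds of 16.8, 13.5 and 17.1 in WT and 20.9, 16.9 and 18.3 in CREBBP-KO, which overlapped (shift 0.10 ± 0.18, limma adjusted p = 0.682). In its upstream flank an interval in no protein-coding gene body had a shift of 0.60 ± 0.26 and the promoter of DHX30 one of -0.40 ± 0.17, and neither was called (limma adjusted p = 0.0710 and 0.0664). SMARCD1 (chr12:50085200-50100707, plus strand), a core subunit that contacts transcription factors, had promoter percentiles of 93.3, 91.7 and 94.6 in WT and 92.1, 90.1 and 92.8 in CREBBP-KO. They overlapped (shift -0.25 ± 0.17, limma adjusted p = 0.242). Its promoter peak was wider in CREBBP-KO, 2420 ± 123 bp against 2058 ± 213 bp (SD, n = 3, exact permutation p = 0.1). Here too the share over all promoters was not computed. The neighbouring promoter of COX14 had a shift of 0.46 ± 0.21 that was not called (limma adjusted p = 0.0824).

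Most intervals of these genes were weak. Of the 264, 94 had a peak in 1 library only, at a median percentile of 15.3, and 63 of these were in a CREBBP-KO library and 31 in a WT library. The CREBBP-KO lists were the longer ones, and the same split over all intervals was not computed. A peak in all 6 libraries was found at 78 (29.5%), against 36.3% of all intervals. At 6 intervals each CREBBP-KO library and none of the WT libraries had a peak (2.27%), against 2.66% of all. The reverse was found at 0, against 1.08% of all. Besides that in SMARCB1, the 6 lay 19.4 kb into ARID1B and in its downstream flank, 79.4 kb into SMARCA2, 89.8 kb into SMARCA4 and 133 kb into PBRM1. They were at percentiles between 0.854 and 56.3.

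Summed over the 10 windows (1893 kb), the lists held 152, 154 and 137 peaks in WT and 203, 194 and 181 in CREBBP-KO. All CREBBP-KO libraries were above all WT libraries, with means of 148 ± 9.29 and 193 ± 11.1 (SD, n = 3, exact permutation p = 0.1). The ratio of means was 1.3, against 1.16 for the whole lists. With the same number of peaks taken from each list the ratio was 1.14, while the whole lists were then of equal length by construction. The covered length rose less, from 267 ± 12.3 to 306 ± 15.7 kb (SD, n = 3, exact permutation p = 0.1), a ratio of 1.15. The covered length of the whole lists was not computed. By gene, ARID1B (33, 35 and 35 against 48, 39 and 46), PBRM1 (21, 23 and 23 against 30, 42 and 28) and SMARCA2 (13, 13 and 12 against 20, 21 and 16) had more peaks in every CREBBP-KO than in any WT library. The other 7 windows overlapped between genotypes in peak number. Covered length gave another split. ARID1B overlapped in it (65.2, 65.5 and 61.8 kb against 66.4, 64.2 and 71.3 kb, exact permutation p = 0.4). ARID1A, SMARCA4, SMARCB1 and BRD7 had more covered length in every CREBBP-KO than in any WT library, as had PBRM1 and SMARCA2 (exact permutation p = 0.1 in each). ARID2, SMARCC1 and SMARCD1 overlapped in both measures. The whole lists were likewise longer in every CREBBP-KO library than in any WT library. The share of all gene windows that are apart in peak number or covered length was not computed.

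**Figure D4:**
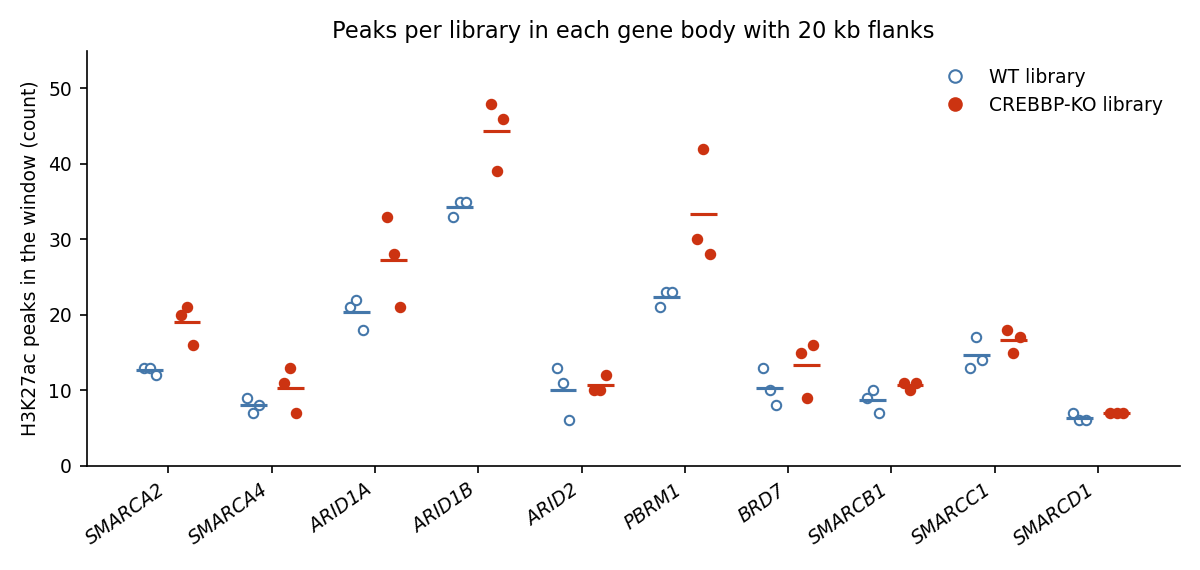
Number of H3K27ac peaks per library in each gene body with 20 kb on either side; open circles are WT, filled circles CREBBP-KO libraries and bars their means (n = 3). The genotypes are apart at ARID1B, PBRM1 and SMARCA2 and overlap at the other genes. The whole lists are also longer in every CREBBP-KO library than in any WT library.

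The other 19 genes of the SWI/SNF complexes were taken from a list of subunits. A promoter peak in all 6 libraries was found at 18, and none in any library at ACTL6B, the neuronal actin-like subunit. Of the 18, 5 had all CREBBP-KO libraries above all WT libraries in percentile, 2 below, and 11 overlapped, beside 46.0% of all promoters above and 7.25% below. The largest rises in mean percentile were at SMARCD3 (12.0 points), a paralogue of SMARCD1, ACTL6A (9.19) and PHF10 (8.84), of which PHF10 overlapped between genotypes. Falls were seen at BCL7A (-2.35, overlapping), BCL7B (-1.85) and SS18 (-0.75). On the scores, ACTB was called higher (shift 0.60 ± 0.23) and BCL7B and SS18 lower (-0.67 ± 0.16 and -0.50 ± 0.18), with limma adjusted p of 0.0417, 0.00320 and 0.0284. Of all tested promoter intervals, 27.2% were called higher and 7.50% lower. DPF1 and ACTL6B had no tested promoter interval. The shifts of SMARCD3 and ACTL6A were not called (limma adjusted p = 0.0715 and 0.0672).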

How the data were processed

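H3K27ac peak lists of 3 WT and 3 CREBBP-KO libraries were used, 1 list per library. The 2 input libraries were not analysed here. The authors aligned reads to hg38 (BWA in the submitters' processing notes) and called narrow peaks with MACS2. Column 7 of the deposited lists is a ratio, the fold enrichment over background, and the next columns are the deposited −log10 p and −log10 q. Whether the lists stem from before or after downsampling of reads, and which input was the control, is not given in the sources used here. The depth of each library is unknown.

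The members and lists were chosen with earlier results of these data known. Groups and replicate numbers came from the sample titles. Peaks were merged across libraries (143733 intervals, the same as with bedtools 2.31.1). An interval took the highest fold of each library. Tested were intervals with a fold of at least 5 in all 3 libraries of a genotype and a peak in all 6. Normal scores of the ranks were fitted with limma 3.58.1 (R 4.3.3, eBayes with trend) over all 34864 tested intervals with Benjamini-Hochberg adjustment. For single values two-sided exact permutation tests were run (smallest p 0.1). Promoters were windows of 1 kb around GENCODE release 44 canonical starts. Named by rule are all members, the 5 largest called shifts without overlap in each direction, intervals found in 1 genotype only, neighbours with a start there, and of the 19 other subunits the 3 largest rises and falls and those without a peak. The other called intervals and the highest interval of each gene were added after their values were seen. Chromosomes 1 to 22, X and Y fitted the hg38 lengths. The fit was tested on simulated data: of 100 planted shifts of 2 units, 100% were recovered, and of 100 of 1 unit, 56.0%. The simulated noise had the same spread at every interval, and far fewer intervals were shifted than were called in the data. These shares therefore need not hold for the reported fit. Alternatives were the fold filter, the ranking, the matching of peaks, flanks, windows, thresholds, a replicate block and each library left out. Python 3.11.15, numpy 2.4.6, pandas 2.3.3 and scipy 1.17.1 were used. A neighbouring promoter and a pair of sequences are not reported here.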

Additional observations from a re-analysis of the deposited data

How the results depend on the processing

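The numbers of called intervals, 11 higher and 5 lower, were 6 and 2 with a fold filter of 10, and 1 and 0 at an adjusted p under 0.0001. With peaks ranked by -log10 p 5 were higher, and without flanks 6. With 1 library left out, 10 to 11 were higher and 4 to 6 lower. With a replicate block the numbers were 10 and 5. The replicate numbers were not taken as pairs, since same-numbered libraries deviated together with correlations of only 0.011, 0.014 and 0.028. Of the 11 higher and 5 lower calls, 4 and 2 were kept in every alternative fit that tested the interval, stricter thresholds and other flanks apart: SMARCB1 at 39.2 kb and in MMP11, ARID1B at 215, 199 and 352 kb, and the NT5DC2 and UQCC5 promoter. Differences in peak number and covered length kept their sign under all alternatives, and were 39.7 to 50.8 peaks and 30.7 to 46.3 kb with 1 library left out. With the same number of peaks from each list they were 19.0 peaks and 25.7 kb. The difference at the ARID1A promoter, -1.07 points, turned to 0.39 with ranking by -log10 p, and ranged from -2.70 to 0.55 with 1 library left out, where it was 0.24 without WT library 2 and 0.55 without CREBBP-KO library 2. That of BRD7, 1.34 points, ranged from -0.023 (without WT library 2) to 2.89. That of ARID1B was -0.054 over the starts of all its transcripts, where an internal start is the highest. A summit within 1 kb of the start was lacking in at least 1 library for ARID1A, ARID1B, ARID2 and SMARCA2. At ARID1B and SMARCA2 the summit of the promoter peak lay beyond 1 kb in all 6 libraries. The causes were not tested. Without reads, differences in signal between peaks of unlike depth cannot be measured, and 3 libraries per genotype limit each exact test to a p of 0.1.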
